A study of Homo sapiens with 8 samples.

Results

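The genes described here are 38 interferon-stimulated genes given as a list of symbols, out of 60652 gene rows counted in each library. They include the enzymes that attach ISG15 to other proteins, the interferon-induced PARP genes, and a set of antiviral effectors outside the OAS, MX, IFIT and IFITM families. All 38 symbols matched 1 gene row each, and 35 had enough reads to be tested. Messenger RNA was sequenced from 8 libraries of HEK293T cells, a transformed human embryonic kidney line, which carried a TRE3G-GFP reporter in all groups. The cells grew in medium with 10% serum, received plasmids for an activator and for its guide RNA, and were taken by cell sorting for mCherry and BFP at day 2. There were 4 groups of 2 libraries. In sgNT and sgTet the activator was dCasMINI-VPR, with a non-targeting sgRNA or one labelled Tet, and in crNT and crTet it was dCas12a-VPR, with a non-targeting crRNA or one labelled Tet. dCasMINI and dCas12a are Cas proteins without cutting activity, the first much the smaller, and VPR is a fusion of strong transcription activation domains. No group went without transfection or without an activator, so each value is a level in transfected and sorted cells, with no baseline of resting cells.

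Interferons are secreted proteins that a cell releases when its sensors meet foreign nucleic acid. They bind receptors on the same or neighbouring cells, and the receptor kinases activate transcription factors, among them STAT2, which with IRF9 bind a short DNA element, the interferon-stimulated response element (ISRE), in front of many genes. Among the products is ISG15, a ubiquitin-like protein that is joined to other proteins in a chain of enzymes parallel to that of ubiquitin: UBA7 activates it, UBE2L6 carries it and HERC5 transfers it, a process called ISGylation. Other products edit, bind or degrade RNA, deplete or modify nucleotides, add ADP-ribose to proteins, or form nuclear bodies that silence viral genomes.

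Reads counted in genes ranged from 17474404 to 21081942 per library, and 3 reads in a library correspond to 0.145 to 0.170 CPM (reads of a gene per 1000000 reads of the TMM-scaled library). That floor covers counting error only. EGFP, the reporter transcript and the check of the labels, went from 3.82 ± 0.846 to 1006 ± 123 CPM (mean ± SD, n = 2) with dCasMINI-VPR and from 2.71 ± 0.0760 to 755 ± 68.1 CPM with dCas12a-VPR. All 9 markers expected of HEK293T cells were at or above 1 CPM on average, led by IRS4 at 913 CPM. Of 12 haematopoietic markers, PTPRC, CD68 and HBB had no read and the summed level was 6.39 to 8.56 CPM over the libraries. Endothelial markers summed to 0.972 to 1.71 CPM and fibroblast markers to 35.8 to 49.4 CPM, most of it COL1A1. Reads that mapped nowhere were 14.4% and 12.7% in crNT and 8.32% to 9.62% in the other 6 libraries. The labels do not say whether the 2 libraries of a group came from separate transfections, so p-values measure the spread between these libraries, which may be technical. The activator, its own kind of guide RNA and any separate handling of the 2 sets of cells cannot be told apart in this design.

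The letters of the ISRE, a pair of GAAA repeats with any 2 bases between, were searched on both strands of RefSeq promoter windows (build GRCh38.p14, 250 bases before to 50 after a start, 300 bases in all), together with TTCNNNGAA, the letters of the GAS element, another interferon-response element. The 2 motifs can overlap, as they do by some bases in EPSTI1. Of the 38 genes, 32 had a window, and 21 of these (65.6%) held the ISRE letters, against 4.38% of 27305 genes with a window. The GAS letters stood in 7 of the 32 (21.9%), against 9.38% of all. The stretch before the ISG15 start is printed because it holds 2 overlapping ISRE matches, written in capitals as 1 run of 16 bases (chr1:1013247-1013422, plus strand, ending before the first annotated exon of the window).
ISG15: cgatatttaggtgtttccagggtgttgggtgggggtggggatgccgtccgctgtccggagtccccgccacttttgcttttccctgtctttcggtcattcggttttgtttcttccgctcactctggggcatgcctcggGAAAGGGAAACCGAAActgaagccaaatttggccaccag
The next lines give 30 bases around matches of genes the results below turn on, with the 10 ISRE letters in capitals and written on the strand that carries them.
RSAD2 (chr2:6877622-6877651, minus strand): ttccacatgtGAAACTGAAAgttgaaacag
SAMD9 (chr7:93118096-93118125, minus strand): tctgagaaatGAAACTGAAAccaaacctat
PARP9 and DTX3L (chr3:122564322-122564351, plus strand): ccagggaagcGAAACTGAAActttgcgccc
HERC5 (chr4:88457035-88457064, minus strand): agctccagtgGAAAACGAAAcataatgttt
EIF2AK2 (chr2:37156967-37156996, minus strand): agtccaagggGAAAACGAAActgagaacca
IFI27 (chr14:94110618-94110647, minus strand): cattttccagGAAACCGAAActgcagacat
DDX60 (chr4:168318786-168318815, minus strand): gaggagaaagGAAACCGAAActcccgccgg
DDX60L (chr4:168480523-168480552, minus strand): gtggagaaaaGAAACCGAAActaactccct
PARP12 (chr7:140062942-140062971, plus strand): ggcgggaaacGAAACCGAAAgcggccccgg
PARP14 (chr3:122680800-122680829, plus strand): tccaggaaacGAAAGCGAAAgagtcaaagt
LGALS3BP (chr17:78979962-78979991, minus strand): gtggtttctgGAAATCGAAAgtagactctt

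The form with CT between the GAAA repeats, GAAACTGAAA, occurred in 8 of the 21 genes (DDX60, DTX3L, IFI44, ISG20, PARP9, RSAD2, SAMD9 and TRIM21), or 38.1%, against 7.62% of the 1195 genes with any form. GAAACCGAAA occurred in 6 (DDX60, DDX60L, EPSTI1, IFI27, ISG15 and PARP12), or 28.6% against 2.93%. PARP9 and DTX3L, which are transcribed away from each other, share 1 match, 41 bases before the PARP9 start and 6 before that of DTX3L. IFI44L carries the same 30 bases around 2 matches, 164 and 73 bases before its start. The barely detected genes PARP12, PARP14 and DDX60L, which had 18, 5 and 11 reads over all 8 libraries, hold the letters as the expressed genes do. No match was found in the windows of UBE2L6, HERC6, IFI16, IFI35, CMPK2, XAF1, SAMD9L, SP100, SP110, HELZ2 and ADAR. A match is a description of letters and not of a bound site.

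**Figure D1:**
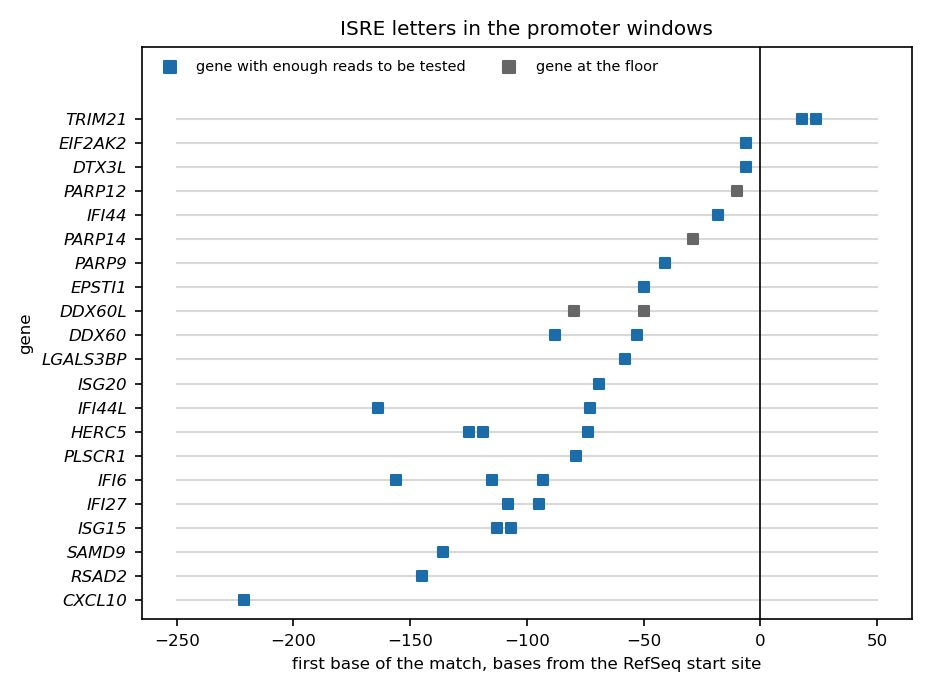
Positions of the ISRE letters in the 21 genes whose promoter window holds them. The horizontal axis is the distance in bases from the RefSeq start site, squares are the first base of a match, grey squares are the 3 genes with too few reads to test, and pale lines show the window from 250 bases before to 50 after the start. Matches lie between 221 bases before the start (CXCL10) and 24 bases after it (TRIM21).

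The 38 genes together were higher with dCas12a-VPR than with dCasMINI-VPR under either guide. Their summed level was 5682 and 5550.5 CPM in crNT and 4779.7 and 4472 in crTet, against 3098 and 3086 in sgNT and 2564 and 2706 in sgTet. The libraries of the 2 activators did not overlap, and within each activator the non-targeting libraries lay above the Tet libraries. The sum was 1.82 times as high in crNT as in sgNT and 1.76 times as high in crTet as in sgTet. ADAR, IFI6, LGALS3BP, ISG15, HELZ2 and EIF2AK2 made up 60.1% to 64.0% of it in a group. Of the 35 genes tested, 34 had all 4 dCas12a-VPR libraries above all 4 dCasMINI-VPR libraries, which held for 5.62% of all 16606 genes tested, and IFI16 was the exception. The mean was highest in crNT for 33 of the 35, against 29.8% of all genes. In bulk cells, fewer expressing cells and less RNA per cell cannot be told apart.

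**Figure D2:**
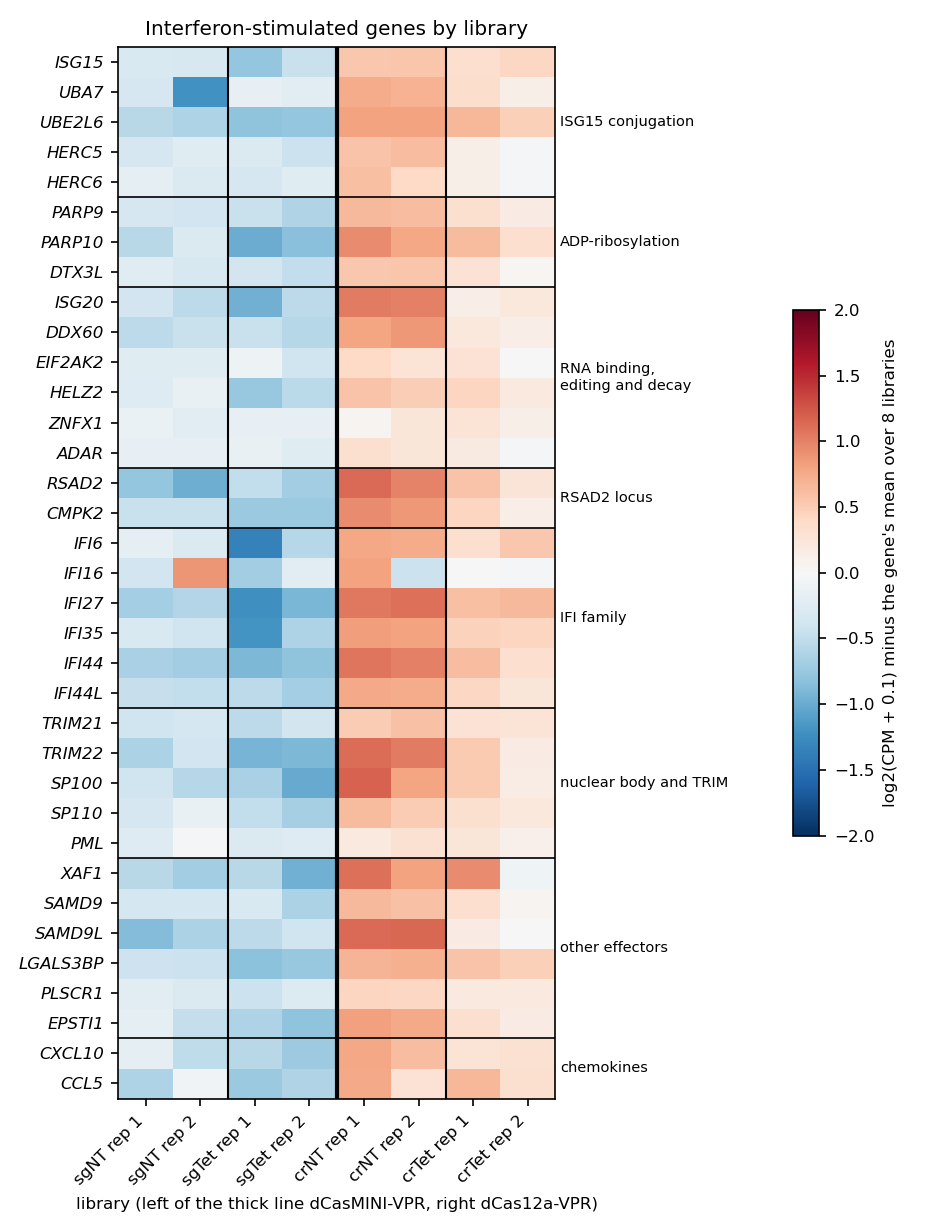
Level of the 35 tested genes in each of the 8 libraries, as log2(CPM + 0.1) minus the mean of the gene over the libraries. Rows are genes by role, columns are libraries, red is above and blue below the gene's mean, and the thick line parts dCasMINI-VPR from dCas12a-VPR. All rows but IFI16 are higher in every library to the right of the thick line, and 33 rows have their highest mean in crNT.

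Whether the 2 activators differ when the guide has no target was asked by comparing sgNT with crNT. Every log2 difference is dCasMINI-VPR minus dCas12a-VPR, with its SE, from edgeR's quasi-likelihood test, and a gene is called at a Benjamini-Hochberg adjusted p below 0.05 over all 16606 genes. Of the 35 genes, 32 were called lower in sgNT and 0 higher, against 3.6% of all genes called lower and 4.09% called higher. Their median log2 difference was -1.07, that of all genes 0.00013, and 18 were called with a fold of 2 or more, against 0.494% of all genes. IFI6, IFI16 and ZNFX1 were not called by edgeR. The same comparison under Tet guides, sgTet with crTet, shares no library with the first. It called 27 lower and 0 higher, against 2.6% and 1.68% of all genes, with a median of -0.94 (-0.0024 for all genes), and 12 of the 27 differed by a fold of 2 or more (0.518% of all genes). The 27 were all among the 32, and 0.982% of all genes were called lower in both. At an unadjusted p below 0.05 the numbers were 34 and 32, with 0 higher in either. Of all 16606 genes, 3495 and 3100 reached that level, 1757 and 1481 of them higher. Leaving out 1 library at a time gave 28 to 33 calls under non-targeting guides and 22 to 29 under Tet guides, and 27 and 22 genes were called in each of those 8 fits. DESeq2 called 32 and 28, all lower. Its 32 under non-targeting guides were not the same genes, since they included IFI6 and left out UBA7. The genes that lost a call when reads of 1 strand alone were counted or when only the compared groups were fitted were UBA7 (0.0801 and 0.142), ISG20 (0.161), CXCL10 (0.284 and 0.0531) and CCL5 (0.128 and 0.066) under non-targeting guides, and XAF1 (0.0812), EIF2AK2 (0.066 and 0.0599), CCL5 (0.0819) and ADAR (0.0638 and 0.16) under Tet guides, with the adjusted p-values reached in brackets.

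**Figure D3:**
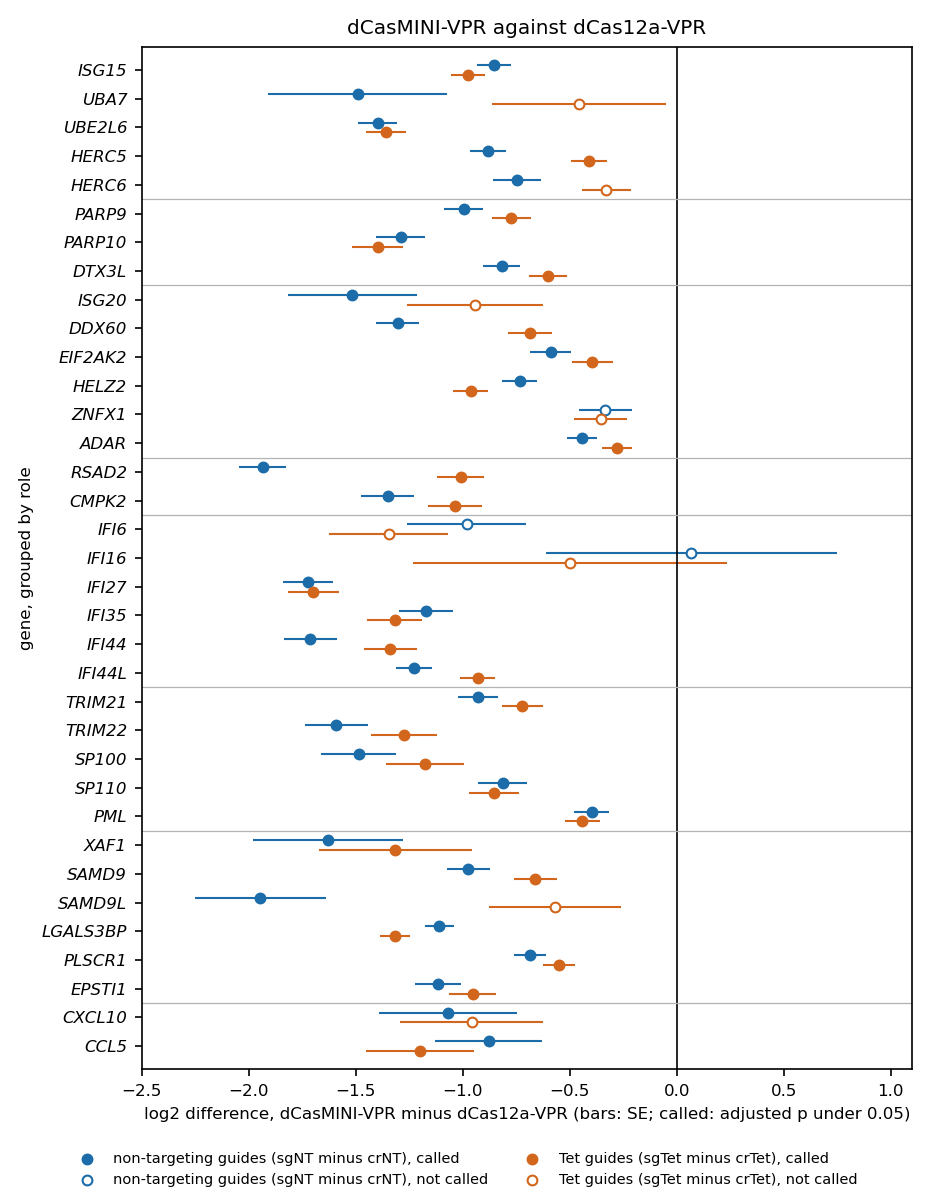
Log2 difference between the activators (dCasMINI-VPR minus dCas12a-VPR) for the 35 tested genes under non-targeting guides (blue) and Tet guides (orange). Bars are SE, filled points are called at an adjusted p below 0.05 over all genes and open points are not. All points but that of IFI16 under non-targeting guides lie left of 0, and 27 genes have both points filled.

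All 5 genes of the ISG15 pathway were called lower by edgeR in sgNT than in crNT (4 by DESeq2), and 3 of the 5 were called lower in sgTet than in crTet. ISG15 itself (ENSG00000187608.10, hg38 chromosome 1, 1001138 to 1014540) stood at 470.3 and 472 CPM in crNT and 408 and 429 in crTet, against 261 and 260.0 in sgNT and 189 and 237 in sgTet. It was 1.81-fold lower with dCasMINI-VPR under non-targeting guides (-0.85 ± 0.08, adjusted p = 2.68e-09) and 1.97-fold lower under Tet guides (-0.98 ± 0.08, adjusted p = 1.76e-10). UBE2L6, the enzyme that carries ISG15 (ENSG00000156587.16, hg38 chromosome 11, 57551656 to 57568284), had the widest gap of the pathway under Tet guides. It was at 116 and 116 CPM in crNT and 105 and 91.7 in crTet, against 44.9 and 43.0 in sgNT and 37.8 and 38.8 in sgTet, with a log2 difference of -1.40 ± 0.09 under non-targeting guides (adjusted p = 6.23e-13) and -1.36 ± 0.09 under Tet guides (adjusted p = 1.93e-12). HERC5, the main human ligase for ISG15 (ENSG00000138646.9, hg38 chromosome 4, 88457117 to 88506163), was at 162 and 167 CPM in crNT and 119 and 108 in crTet, against 86.8 and 92.3 in sgNT and 89.6 and 80.8 in sgTet. Its sgNT and sgTet libraries overlapped while its crTet libraries lay below those of crNT. The difference was -0.88 ± 0.08 under non-targeting guides (adjusted p = 2.45e-09) and -0.41 ± 0.08 under Tet guides (adjusted p = 0.0023), the latter lost without crTet replicate 1 (adjusted p = 0.0716). HERC6, a close relative of HERC5 beside it on chromosome 4, stood at 54.4 and 47.4 CPM in crNT and 39.0 and 35.0 in crTet, against 31.3 and 29.3 in sgNT and 28.5 and 30.5 in sgTet. It was called under non-targeting guides (-0.75 ± 0.11, adjusted p = 2.23e-05) but not under Tet guides (-0.33 ± 0.11, adjusted p = 0.0932). UBA7, which activates ISG15, was the scarcest of the 5 with 293 reads in all. Its libraries were at 2.92 and 2.80 CPM in crNT and 2.19 and 1.86 in crTet, against 1.33 and 0.680 in sgNT and 1.50 and 1.45 in sgTet. It was called lower in sgNT (-1.49 ± 0.42, adjusted p = 0.0222), a call lost without crNT replicate 1, crNT replicate 2 or sgNT replicate 2 (adjusted p = 0.162, 0.116 and 0.325). Under Tet guides the UBA7 value was -0.46 ± 0.41, adjusted p = 0.605. The levels per length put ISG15 far above its enzymes: in crNT they were 501 CPM per kb of exon for ISG15, 52.7 for UBE2L6, 34.6 for HERC5, 8.78 for HERC6 and 0.629 for UBA7.

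Of the 5 ADP-ribosylation genes, the 3 that were expressed were lower with dCasMINI-VPR under both guides, and 2 were at the floor. PARP9, a PARP family protein that works in a complex with the ubiquitin ligase DTX3L, stood at 118 and 116 CPM in crNT and 94.3 and 84.9 in crTet, against 59.5 and 58.0 in sgNT and 55.2 and 49.8 in sgTet, with a log2 difference of -0.996 ± 0.09 under non-targeting guides (adjusted p = 8.29e-10) and -0.77 ± 0.09 under Tet guides (adjusted p = 3.23e-07). DTX3L was at 142 and 143 CPM in crNT and 121 and 100.5 in crTet, against 83.1 and 79.0 in sgNT and 76.0 and 69.7 in sgTet, with a log2 difference of -0.82 ± 0.09 under non-targeting guides (adjusted p = 4.83e-08) and -0.60 ± 0.09 under Tet guides (adjusted p = 2.46e-05). In both genes every dCas12a-VPR library was above every dCasMINI-VPR library. The pair overlap by 340 bases at their starts, and counts that ignore strand kept 90.8% of the summed strand-specific reads of PARP9 and 92.7% of those of DTX3L. PARP10, which adds single ADP-ribose units to proteins, was at 80.9 and 71.9 CPM in crNT and 64.9 and 52.8 in crTet, against 28.4 and 34.2 in sgNT and 21.1 and 23.5 in sgTet. Its difference was -1.29 ± 0.12, adjusted p = 1.07e-09, under non-targeting guides and -1.40 ± 0.12, adjusted p = 3.26e-10, under Tet guides. Exons of GRINA and SPATC1 overlap PARP10, and its count held 53.2% of the summed strand-specific reads, so its level is uncertain. PARP12 and PARP14, which also add single ADP-ribose units and restrict viruses in other cells, had 18 and 5 reads over all libraries. The highest value of PARP12 was 0.585 CPM in crTet replicate 1 and that of PARP14 was 0.155 CPM in crTet replicate 2. PARP14 lies 105414 bases from the end of DTX3L, which was at 24.4 CPM per kb in crNT.

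Of the 7 genes that bind, edit or degrade RNA, 6 were tested, 5 were called lower in sgNT and 4 lower in sgTet. DDX60, a helicase linked to sensing of viral RNA (ENSG00000137628.18, hg38 chromosome 4, 168216293 to 168318807), stood at 76.2 and 80.5 CPM in crNT and 51.2 and 48.6 in crTet, against 30.8 and 32.6 in sgNT and 32.4 and 29.7 in sgTet. It was 2.47-fold lower with dCasMINI-VPR under non-targeting guides (-1.30 ± 0.10, adjusted p = 2.61e-11) and 1.61-fold lower under Tet guides (-0.69 ± 0.10, adjusted p = 3.05e-05). Its paralog DDX60L, 37927 bases away, had 11 reads in all and at most 0.227 CPM. EIF2AK2 encodes the kinase PKR, which halts translation on double-stranded RNA. It was at 299 and 273 CPM in crNT and 277 and 227 in crTet, against 190.2 and 190.1 in sgNT and 212 and 172 in sgTet. Its crTet replicate 2, at 227 CPM, lay near sgTet replicate 1 at 212, and the differences were -0.59 ± 0.10 (adjusted p = 0.000312) and -0.39 ± 0.09 (adjusted p = 0.0189, or 0.207 without crTet replicate 1). ADAR, the enzyme that edits adenosine to inosine and has an interferon-driven promoter beside a constitutive one, was abundant. It stood at 810.3 and 773 CPM in crNT and 738 and 641 in crTet, against 583 and 581 in sgNT and 586 and 550.0 in sgTet. The gap was small but beyond the spread, -0.44 ± 0.07 under non-targeting guides (adjusted p = 5.96e-05) and -0.28 ± 0.07 under Tet guides (adjusted p = 0.0169), and the latter call was lost without crTet replicate 1 (adjusted p = 0.263). HELZ2, a helicase and nuclear receptor coactivator, was at 464 and 440.4 CPM in crNT and 423 and 360.0 in crTet, against 262 and 282 in sgNT and 185 and 216 in sgTet, with a log2 difference of -0.73 ± 0.08 under non-targeting guides (adjusted p = 1.21e-07) and -0.96 ± 0.08 under Tet guides (adjusted p = 5.06e-10). ISG20, an exonuclease of single-stranded RNA, was scarce at 5.94 and 5.76 CPM in crNT and 3.12 and 3.30 in crTet, against 2.15 and 1.93 in sgNT and 1.40 and 1.93 in sgTet. Its difference was -1.52 ± 0.30, adjusted p = 0.00101, under non-targeting guides and -0.94 ± 0.32, adjusted p = 0.0851, under Tet guides. ZNFX1, a helicase-like sensor of RNA, differed least under non-targeting guides among those above 1 CPM, with means of 22.1 ± 1.11, 22.4 ± 0.0720, 27.8 ± 2.59 and 28.6 ± 2.11 CPM in sgNT, sgTet, crNT and crTet. Neither comparison called it (-0.33 ± 0.13, adjusted p = 0.106, and -0.36 ± 0.12, adjusted p = 0.101). Its count held 57.1% of the summed strand-specific reads, and ZFAS1 and DDX27 overlap it.

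RSAD2 and CMPK2, neighbours on chromosome 2 that point away from each other, were lower with dCasMINI-VPR under both guides. Their outer bounds in GENCODE 29 overlap by 830 bases. The RefSeq promoter window of RSAD2 searched above begins at base 6877527, beyond the CMPK2 bound at 6866635. RSAD2 encodes viperin, which turns CTP into a chain terminator of viral RNA synthesis, and CMPK2 is a kinase of pyrimidine nucleotides. RSAD2 (ENSG00000134321.13, hg38 chromosome 2, 6865806 to 6898239) stood at 117 and 106 CPM in crNT and 78.6 and 63.4 in crTet, against 31.1 and 27.0 in sgNT and 37.7 and 32.9 in sgTet. The crNT libraries were the highest, the crTet libraries came next, and both sgTet libraries lay above both of sgNT. Its 3.82-fold gap under non-targeting guides (-1.94 ± 0.11, adjusted p = 6.82e-14) and 2.01-fold gap under Tet guides (-1.01 ± 0.11, adjusted p = 9.67e-08) were called whichever library was left out. CMPK2 was at 50.3 and 47.4 CPM in crNT and 35.2 and 28.5 in crTet, against 19.1 and 19.2 in sgNT and 15.6 and 15.5 in sgTet, with a log2 difference of -1.35 ± 0.12 under non-targeting guides (adjusted p = 1.23e-09) and -1.04 ± 0.13 under Tet guides (adjusted p = 7.86e-07). Unlike RSAD2, CMPK2 was lower in both sgTet libraries than in sgNT. A test of that contrast between the 2 genes was not run. In crNT the level per length was 23.0 CPM per kb for RSAD2 and 11.4 for CMPK2, and RSAD2 and CMPK2 kept 96% and 91.8% of their summed strand-specific reads.

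In the IFI family, IFI27, IFI35, IFI44 and IFI44L were lower with dCasMINI-VPR under both guides, while IFI6 and IFI16 were not called. IFI27, a small mitochondrial protein (ENSG00000165949.12, hg38 chromosome 14, 94104836 to 94116698), was at 61.9 and 63.8 CPM in crNT and 44.8 and 46.7 in crTet, against 18.5 and 19.6 in sgNT and 12.5 and 15.7 in sgTet. Its gaps were 3.30-fold and 3.24-fold (-1.72 ± 0.12, adjusted p = 9.95e-13, and -1.70 ± 0.12, adjusted p = 5.44e-12), nearly alike under the 2 guides. IFI44 and IFI44L lie 3650 bases apart on chromosome 1 and are related in sequence. IFI44 stood at 57.5 and 54.9 CPM in crNT and 42.0 and 34.5 in crTet, against 17.5 and 16.8 in sgNT and 14.6 and 15.7 in sgTet, with a log2 difference of -1.71 ± 0.12 under non-targeting guides (adjusted p = 2.74e-12) and -1.34 ± 0.12 under Tet guides (adjusted p = 1.74e-09). IFI44L was at 199 and 197 CPM in crNT and 156 and 140.0 in crTet, against 85.7 and 83.4 in sgNT and 82.1 and 73.4 in sgTet, with a log2 difference of -1.23 ± 0.08 under non-targeting guides (adjusted p = 7.77e-13) and -0.93 ± 0.08 under Tet guides (adjusted p = 6.42e-10). IFI35 was at 115 and 112 CPM in crNT and 88.3 and 86.2 in crTet, against 52.1 and 48.7 in sgNT and 27.9 and 42.0 in sgTet. Its sgTet replicate 1 lay well below replicate 2, and the differences were -1.17 ± 0.12 (adjusted p = 3.33e-06) and -1.32 ± 0.13 (adjusted p = 1.25e-06). IFI6, an ER membrane protein that blocks flavivirus replication, was the most abundant of all 38 per length, and its dCas12a-VPR libraries were all above its dCasMINI-VPR libraries. The means were 425 ± 23.1 CPM in sgNT, 266 ± 101 in sgTet, 840.3 ± 14.2 in crNT and 677 ± 66.1 in crTet. The 2 sgTet libraries differed widely (195 and 337 CPM), and with them IFI6 was not called by edgeR (-0.98 ± 0.28, adjusted p = 0.141, and -1.35 ± 0.28, adjusted p = 0.0948). With all 8 libraries DESeq2 called it lower in both (adjusted p = 0.0117 and 0.000268), and edgeR on sgNT and crNT alone called it under non-targeting guides (adjusted p = 9.15e-31). Without sgTet replicate 1 the adjusted p was 8.12e-18 under non-targeting guides and 8.88e-14 under Tet guides, and without sgTet replicate 2 it was 3.25e-18 and 4.79e-23. IFI16, a DNA sensor, had 106 reads in all and means between 0.441 and 0.854 CPM, with 0.07 ± 0.68, adjusted p = 0.971, and -0.50 ± 0.74, adjusted p = 0.782, in the 2 comparisons.

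All 5 nuclear body and TRIM genes were lower with dCasMINI-VPR under both guides. PML and SP100 are core proteins of PML nuclear bodies, SP110 is a relative of SP100, and TRIM21 and TRIM22 are ubiquitin ligases, the former a receptor for antibodies inside cells. TRIM22 had the widest gap, at 35.1 and 33.2 CPM in crNT and 23.2 and 18.0 in crTet, against 10.4 and 12.3 in sgNT and 8.44 and 8.56 in sgTet, with a log2 difference of -1.59 ± 0.15 under non-targeting guides (adjusted p = 1.72e-09) and -1.28 ± 0.15 under Tet guides (adjusted p = 6.66e-07). SP100 was at 27.7 and 21.3 CPM in crNT and 17.6 and 13.5 in crTet, against 9.26 and 8.16 in sgNT and 7.74 and 6.04 in sgTet, with a log2 difference of -1.49 ± 0.17 under non-targeting guides (adjusted p = 3.25e-07) and -1.18 ± 0.18 under Tet guides (adjusted p = 5.81e-05). TRIM21 stood at 80.6 and 84.7 CPM in crNT and 69.0 and 67.9 in crTet, against 42.7 and 44.1 in sgNT and 39.3 and 43.8 in sgTet, with a log2 difference of -0.93 ± 0.10 under non-targeting guides (adjusted p = 1.56e-08) and -0.72 ± 0.10 under Tet guides (adjusted p = 3.45e-06). The groups of the 2 activators did not overlap in any of these genes. SP110 was at 51.1 and 46.8 CPM in crNT and 41.3 and 38.2 in crTet, against 26.1 and 29.7 in sgNT and 23.3 and 20.7 in sgTet, with a log2 difference of -0.81 ± 0.12 under non-targeting guides (adjusted p = 8.09e-06) and -0.85 ± 0.12 under Tet guides (adjusted p = 6.58e-06). PML had the narrowest gap, at 171 and 183 CPM in crNT and 175 and 159 in crTet, against 124 and 145 in sgNT and 122 and 124 in sgTet. Its difference was -0.40 ± 0.08 under non-targeting guides (adjusted p = 0.00149) and -0.44 ± 0.08 under Tet guides (adjusted p = 0.000788). The first call was lost without crNT replicate 2 (adjusted p = 0.0803) or sgNT replicate 1 (0.11).

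Among 6 other effectors, all were called lower in sgNT than in crNT and 5 lower in sgTet than in crTet. LGALS3BP, a secreted glycoprotein that binds galectins (ENSG00000108679.13, hg38 chromosome 17, 78971238 to 78980109), stood at 530.2 and 541 CPM in crNT and 493 and 463 in crTet, against 249.5 and 247 in sgNT and 188 and 196 in sgTet. It was 2.16-fold lower under non-targeting guides (-1.11 ± 0.07, adjusted p = 1.54e-13) and 2.49-fold lower under Tet guides (-1.32 ± 0.07, adjusted p = 1.54e-15), the smallest adjusted p of the 35 genes in the latter comparison. PLSCR1, a membrane protein that limits virus entry, was at 260.1 and 257 CPM in crNT and 219.5 and 221 in crTet, against 164 and 157 in sgNT and 142 and 159 in sgTet, with a log2 difference of -0.68 ± 0.07 under non-targeting guides (adjusted p = 4.92e-08) and -0.55 ± 0.07 under Tet guides (adjusted p = 4.87e-06). EPSTI1 stood at 83.7 and 80.4 CPM in crNT and 59.3 and 53.3 in crTet, against 41.6 and 34.0 in sgNT and 30.9 and 27.2 in sgTet, with a log2 difference of -1.12 ± 0.11 under non-targeting guides (adjusted p = 2.91e-09) and -0.95 ± 0.11 under Tet guides (adjusted p = 1.96e-07). SAMD9 and SAMD9L are neighbouring paralogs that inhibit translation and growth. SAMD9 was at 137 and 131 CPM in crNT and 110.3 and 90.2 in crTet, against 68.5 and 68.0 in sgNT and 70.5 and 56.3 in sgTet, with a log2 difference of -0.97 ± 0.10 under non-targeting guides (adjusted p = 5.90e-08) and -0.66 ± 0.10 under Tet guides (adjusted p = 7.10e-05). SAMD9L was at 6.19 and 6.30 CPM in crNT and 3.12 and 2.79 in crTet, against 1.48 and 1.76 in sgNT and 1.90 and 2.08 in sgTet, far below its neighbour, with 22.3 times less per length in crNT. Its fall from crNT to crTet was wide, and the activators differed by -1.95 ± 0.31 under non-targeting guides (adjusted p = 4.86e-05) but were not called under Tet guides (-0.57 ± 0.31, adjusted p = 0.329). XAF1, which antagonises an inhibitor of cell death, stood at 5.53 and 4.48 CPM in crNT and 4.97 and 2.37 in crTet, against 1.69 and 1.53 in sgNT and 1.70 and 1.26 in sgTet. Its call under non-targeting guides (-1.63 ± 0.35, adjusted p = 0.0024) was lost without crNT replicate 1 (adjusted p = 0.062) or sgNT replicate 2 (0.0579). The call under Tet guides (-1.32 ± 0.36, adjusted p = 0.0271) was lost without crTet replicate 1 (0.465), sgTet replicate 1 (0.0523) or sgTet replicate 2 (0.0768). The antisense gene PRAL covers 38.3% of the XAF1 exon bases, and the count held 26.7% of the summed strand-specific reads.

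The 2 chemokine genes were expressed at low levels. CXCL10, a ligand of CXCR3 on T cells, stood at 4.40 and 3.94 CPM in crNT and 3.07 and 3.15 in crTet, against 2.20 and 1.76 in sgNT and 1.70 and 1.50 in sgTet. CCL5, a chemokine that attracts T cells, was at 8.80 and 6.35 CPM in crNT and 8.29 and 6.50 in crTet, against 3.33 and 4.93 in sgNT and 3.05 and 3.38 in sgTet. Both had all dCas12a-VPR libraries above all dCasMINI-VPR libraries. CXCL10 was called under non-targeting guides (-1.07 ± 0.32, adjusted p = 0.0357) and not under Tet guides (-0.96 ± 0.33, adjusted p = 0.0982), and the call was lost without any 1 of crNT replicate 1, crNT replicate 2, sgNT replicate 1 or sgNT replicate 2 (adjusted p = 0.286, 0.14, 0.0848 and 0.32). CCL5 was called under both (-0.88 ± 0.25, adjusted p = 0.0233, and -1.20 ± 0.25, adjusted p = 0.00343). It lost the first call without crNT replicate 1 (adjusted p = 0.408) or sgNT replicate 1 (0.272) and the second without crTet replicate 1 (0.0762).

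Level per length spanned a wide range within the set. The means over the 4 groups ran from 0.129 CPM per kb of exon (IFI16) to 638 (IFI6), with a median of 10.4 against 3.52 for all genes tested, and 26 of the 35 genes lay above the latter. IFI6 and ISG15 were followed by LGALS3BP, ADAR and PLSCR1. At the low end, SAMD9L, XAF1, ISG20, UBA7 and IFI16 were all below 1 CPM per kb in every group. The place of XAF1 is uncertain, since its count held 26.7% of its summed strand-specific reads. The order of groups was crNT, crTet, sgNT, sgTet from high to low in 29 genes. In EIF2AK2, RSAD2, SAMD9L and UBA7 the 2 dCasMINI-VPR groups changed places, in ZNFX1 crTet was the highest, and in IFI16 sgNT was. The sgNT and sgTet libraries overlapped in 14 of the 35, sgTet lay wholly below sgNT in 18 (20.2% of all genes) and wholly above it in UBA7, RSAD2 and SAMD9L. The shares of all genes that overlapped or lay wholly above were not counted, so those genes are named as a description only. The order of sgNT and sgTet was beyond the spread by the test in LGALS3BP, HELZ2 and PARP10 alone. Genes that sit side by side could differ widely in level: in crNT, DDX60 was at 11.6 CPM per kb with DDX60L at the floor, and SAMD9 at 19.5 with SAMD9L at 0.875.

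**Figure D4:**
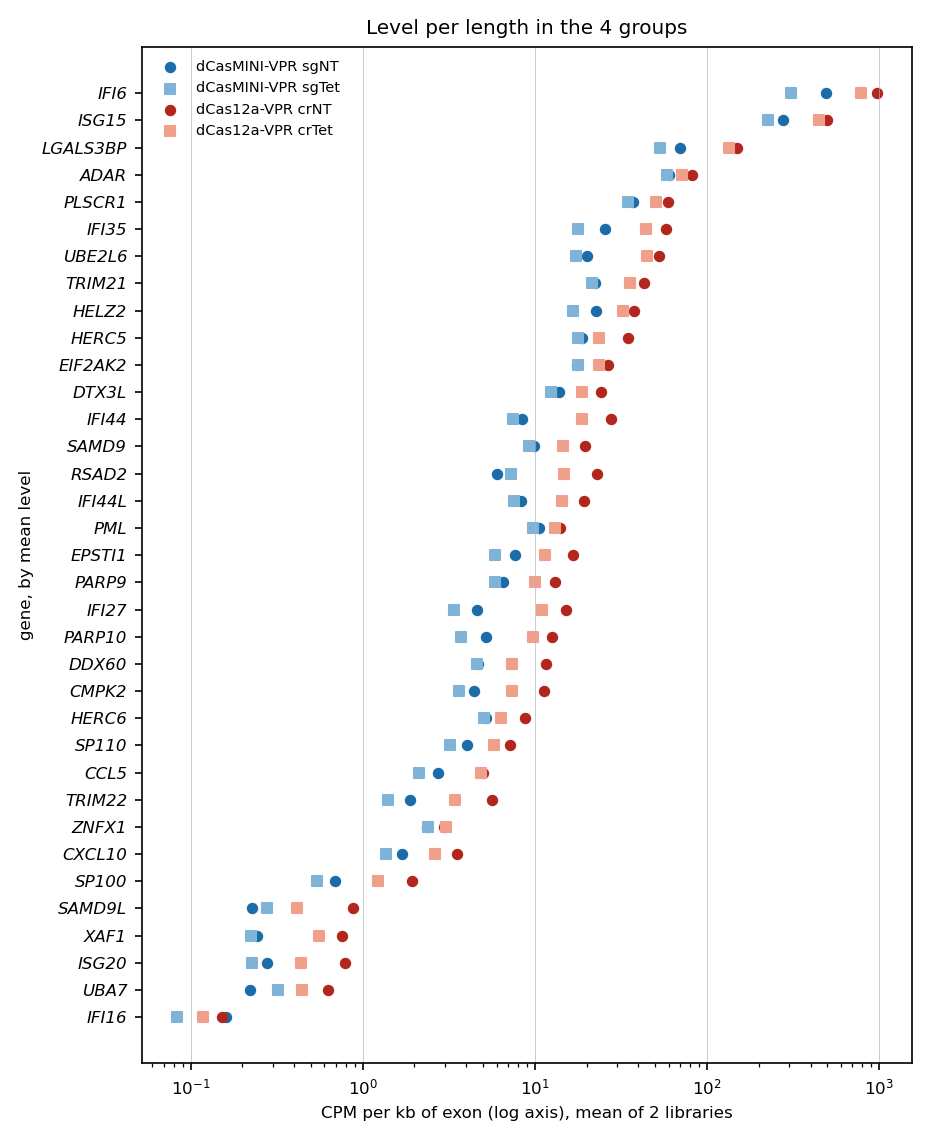
Mean level per length of the 35 tested genes in each group, in CPM per kb of exon on a log axis, with genes ordered by their mean. Circles are non-targeting and squares Tet guides, blue is dCasMINI-VPR and red dCas12a-VPR. Levels run from 0.129 for IFI16 to 638 for IFI6 as means over the groups, and the red symbols lie right of the blue ones in 34 genes.

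With dCas12a-VPR, 16 of the 35 genes were called lower under the Tet guide and 0 higher, against 2.75% of all genes called lower and 3.56% called higher. DESeq2 called 17 lower and 0 higher, forward-strand counts 11 lower and reverse-strand counts 13 lower. This comparison, crTet minus crNT, asks what else differs where dCas12a-VPR activates the reporter. It shares crNT with the non-targeting comparison of the activators, so a library effect in crNT enters both. The median of the 35 was -0.39, that of all genes 0.008. An unadjusted p below 0.05 was reached by 26 of the 35, against 3287 of all 16606 genes. HERC5 (-0.54 ± 0.08, adjusted p = 9.14e-05), RSAD2 (-0.65 ± 0.10, adjusted p = 0.000198) and DDX60 (-0.65 ± 0.10, adjusted p = 9.14e-05) were called whichever library was left out. SAMD9L, which was not among the DESeq2 calls, had the largest value, -1.08 ± 0.28, or 2.11-fold lower (adjusted p = 0.0187 by edgeR). That call was lost without crNT replicate 1 (adjusted p = 0.193), crNT replicate 2 (0.149), crTet replicate 1 (0.0785) or crTet replicate 2 (0.152), and with forward-strand counts (0.162). The others called were TRIM22 (-0.73 ± 0.14), SP100 (-0.65 ± 0.16), CMPK2 (-0.62 ± 0.12), IFI44 (-0.55 ± 0.11), EPSTI1 (-0.54 ± 0.10), HERC6 (-0.46 ± 0.11), IFI27 (-0.46 ± 0.11), IFI44L (-0.42 ± 0.08), SAMD9 (-0.42 ± 0.10), PARP9 (-0.39 ± 0.09), PARP10 (-0.38 ± 0.11) and DTX3L (-0.37 ± 0.09). With forward-strand counts the adjusted p was 0.0643 for IFI27, 0.0641 for IFI44, 0.0871 for SP100 and 0.253 for PARP10. With reverse-strand counts it was 0.0933 for HERC6, 0.0509 for SAMD9 and 0.226 for PARP10. Without crNT replicate 1 the call was kept by 3 genes, and the adjusted p of the rest ranged from 0.0576 for EPSTI1 to 0.474 for PARP10. The count was 10 when crNT replicate 2 was left out and 4 when crTet replicate 2 was. It was 27 when either sgTet library was left out. The medians of those fits lay between -0.43 and -0.34. The crNT libraries were also the 2 with the most unmapped reads (14.4% and 12.7%), and the part of this in the result was not tested. ISG15 itself was not called (-0.17 ± 0.08, adjusted p = 0.215), nor were UBE2L6 (-0.24 ± 0.09, adjusted p = 0.107), EIF2AK2 (-0.18 ± 0.09, adjusted p = 0.295), LGALS3BP (-0.16 ± 0.07, adjusted p = 0.154) or PML (-0.09 ± 0.08, adjusted p = 0.624). IFI6 was not called either (adjusted p = 0.633). These non-calls depend on the spread shared with the sgTet libraries. Fitted on crNT and crTet alone, edgeR called 25 lower and 0 higher. Among the 25 were UBE2L6 (adjusted p = 0.0329) and IFI6 (0.00206), but not ISG15 or LGALS3BP.

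With dCasMINI-VPR, 3 of the 35 genes were called lower under the Tet guide and 0 higher (1 higher at an unadjusted p below 0.05, 0 by DESeq2), against 0.325% of all genes called lower and 0.47% called higher. The 2 sgTet libraries differed most from each other, with a chi-square per degree of freedom over genes of 13.3. It was 3.87 in sgNT, 3.16 in crNT and 6.74 in crTet. The number of calls depends on this spread, so 3 here and 16 with dCas12a-VPR do not by themselves compare the guide effects. LGALS3BP was 1.29-fold lower in sgTet (-0.37 ± 0.07, adjusted p = 0.00218), HELZ2 1.35-fold lower (-0.44 ± 0.08, adjusted p = 0.0025) and PARP10 1.40-fold lower (-0.48 ± 0.12, adjusted p = 0.0476). Each of the 3 had both sgTet libraries below both sgNT libraries. The median of the 35 was -0.18, that of all genes 0.00028. An unadjusted p below 0.05 was reached by 12 of the 35, against 2046 of all 16606 genes, 1044 of these higher. No call was kept in all 8 fits that left out a library. LGALS3BP reached an adjusted p of 0.1 when sgNT replicate 1 was left out and 0.0716 when sgNT replicate 2 was, and HELZ2 was lost without the latter (0.155). PARP10 was lost without crNT replicate 1 (0.0643), crNT replicate 2 (0.0617), sgNT replicate 1 (0.0521), sgNT replicate 2 (0.544) or sgTet replicate 1 (0.318). Without sgTet replicate 2 the count was 8, which were 7 lower and 1 higher, and the 5 added were ISG15, IFI6, IFI27 and IFI35 (lower) and RSAD2 (higher, adjusted p = 0.0448). ISG15 was not called with all libraries (-0.29 ± 0.08, adjusted p = 0.0776). PARP10 was the 1 gene of the 35 called lower by the Tet guide with both activators, and the share of all genes called so was not counted. The 2 comparisons share no library but use 1 common estimate of the spread, and the call of PARP10 was stable in neither. With dCas12a-VPR it was lost with forward-strand (adjusted p = 0.253) and reverse-strand counts (0.226) and without crNT replicate 1 (0.474), crNT replicate 2 (0.0833) or crTet replicate 2 (0.426). With dCasMINI-VPR it was lost with DESeq2 (adjusted p = 0.06), with only the groups compared (0.136) and with reverse-strand counts (0.0927), besides the single libraries named above.

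**Figure D5:**
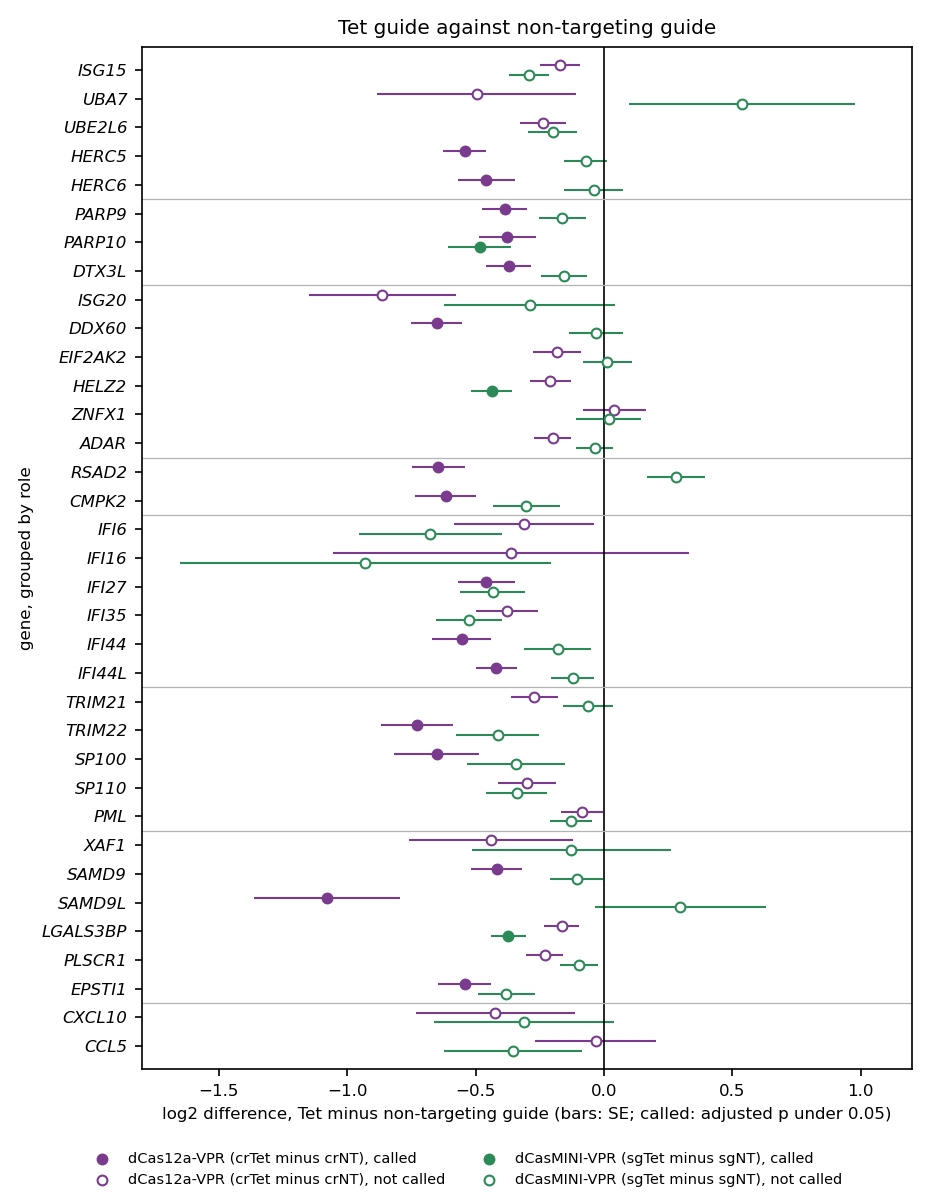
Log2 difference between the Tet and the non-targeting guide for the 35 tested genes with dCas12a-VPR (purple) and dCasMINI-VPR (green). Bars are SE, filled points are called at an adjusted p below 0.05 over all genes and open points are not. There are 16 filled purple points and 3 filled green points, all left of 0. The green points of UBA7, RSAD2, SAMD9L, EIF2AK2 and ZNFX1 and the purple point of ZNFX1 lie right of 0, all open.

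The difference between the 2 guide effects (dCasMINI-VPR minus dCas12a-VPR) was tested as an interaction, which is also the difference between the activator gaps under Tet and under non-targeting guides. It was called for 3 of the 35 genes, all positive, against 0.506% of all genes called in that direction and 0.843% in the other. For RSAD2 the Tet guide effect was -0.65 ± 0.10 with dCas12a-VPR and 0.28 ± 0.11 with dCasMINI-VPR, a difference of 0.93 ± 0.15, adjusted p = 0.0013. That call held whichever library was left out, with adjusted p-values up to 0.031. For DDX60 the effects were -0.65 ± 0.10 and -0.03 ± 0.11, a difference of 0.62 ± 0.14, adjusted p = 0.0231. For HERC5 they were -0.54 ± 0.08 and -0.07 ± 0.08, a difference of 0.47 ± 0.12, adjusted p = 0.036. Leaving out 1 library ended the DDX60 call in 5 fits (crNT replicate 1, crNT replicate 2, crTet replicate 2, sgNT replicate 1 and sgNT replicate 2), with adjusted p-values from 0.0783 to 0.158. The HERC5 call ended in those 5 and without sgTet replicate 1, with 0.0561 to 0.194. With forward-strand counts the calls of DDX60 (adjusted p = 0.126) and HERC5 (0.177) were lost too, and with library size scaling that of HERC5 (0.0502). SAMD9L had the largest difference but was scarce and not called (1.38 ± 0.44, adjusted p = 0.103). The median over the 35 genes was 0.20, and over all genes -0.012. For 24 of the 35 the gap between the activators was nearer 0 under Tet guides. The difference was negative in the other 11, against 8511 of all 16606 genes. Its direction in single genes leaned on the sgTet libraries. Without sgTet replicate 2 it was -0.81 for IFI6, -0.47 for IFI35, -0.34 for HELZ2 and -0.29 for ISG15. In the same fit it was 0.38 for IFI44L, 0.47 for SAMD9 and 0.34 for EIF2AK2.

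Other genes of the pathway were read from lists that hold none of the 38, in the order of the pathway. Of 10 interferon ligand genes, 4 had enough reads to test, and their median difference between the activators was -1.21 under non-targeting and -1.62 under Tet guides. All 4 were lower with dCasMINI-VPR at an unadjusted edgeR p below 0.05 in both comparisons. Of all 16606 genes, 3495 and 3100 reached that level in either direction. IFNB1, the fibroblast interferon, stood at 5.89 and 6.54 CPM in crNT and 5.80 and 4.23 in crTet, against 3.38 and 3.68 in sgNT and 2.55 and 3.72 in sgTet, with every dCas12a-VPR library above every dCasMINI-VPR library, and was called in neither comparison. The ligand genes summed to 4.30 to 5.94 CPM in the dCasMINI-VPR libraries and 8.56 to 13.6 CPM in the dCas12a-VPR libraries. IFNL2, a lambda interferon, was called lower in both (-2.99 ± 0.66, adjusted p = 0.00325, and -2.17 ± 0.61, adjusted p = 0.0353). DESeq2 gave no adjusted p for IFNL2 in these comparisons, and each sgNT library held 4 of its reads, near the floor of 3. The call under Tet guides ended without crNT replicate 1, crNT replicate 2, crTet replicate 1 or sgTet replicate 1, with adjusted p-values of 0.0633, 0.0568, 0.238 and 0.167. IFNL1 was called lower under Tet guides (-1.86 ± 0.46, adjusted p = 0.0129), a call lost without crTet replicate 1 (adjusted p = 0.114) or sgTet replicate 1 (0.105). IFNL2 and IFNL3 are nearly identical, so their unique counts are uncertain. The part of these levels in the result was not tested. Of 8 tested receptor and kinase genes, 0 were called by edgeR in either comparison of the activators, where 1 (non-targeting) and 2 (Tet) had an unadjusted p below 0.05 and DESeq2 called 0. STAT2 was at 50.5 ± 2.34, 40.9 ± 5.97, 96.3 ± 8.06 and 74.4 ± 6.63 CPM in sgNT, sgTet, crNT and crTet, with differences of -0.93 ± 0.10, adjusted p = 8.45e-08, and -0.86 ± 0.10, adjusted p = 7.40e-07. IRF7, a factor that amplifies interferon production, differed by -0.67 ± 0.11 and -0.67 ± 0.11 (adjusted p = 0.000128 and 0.000219).

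Of 6 genes listed together for ISG15 removal and feedback, 2 were lower in sgNT, and in sgTet 3 were lower and 1 higher. The medians were -0.06 and -0.50. This list is mixed and includes the ligase TRIM25, which was 1 of the 2 called lower in sgNT. USP18, the protease that takes ISG15 off proteins, was at 105 ± 3.38, 93.1 ± 3.33, 218 ± 0.784 and 147 ± 9.47 CPM in the same order of groups (-1.06 ± 0.08, adjusted p = 7.16e-12, and -0.66 ± 0.08, adjusted p = 5.12e-07). TRIM25, a ligase that is itself modified by ISG15, differed by -0.60 ± 0.07 (adjusted p = 6.74e-07) and -0.34 ± 0.07 (adjusted p = 0.00459, or 0.137 without crTet replicate 1). Of 8 tested nucleic acid sensors, 3 and 4 were lower with dCasMINI-VPR, with medians of -0.77 and -0.77. IFIH1, which encodes MDA5, differed by -1.05 ± 0.11 and -0.80 ± 0.11 (adjusted p = 1.82e-08 and 6.58e-06). Of 15 OAS, MX, IFIT and IFITM genes, 13 were lower in each comparison, with medians of -1.11 and -1.01. PARP family genes outside the set gave 2 lower and 1 higher of 11 under non-targeting guides and 0 of 11 by edgeR under Tet guides (2 at an unadjusted p below 0.05, 0 by DESeq2), with medians of -0.16 and 0.033. Enzymes that activate and conjugate ubiquitin, NEDD8 or SUMO, the counterparts of UBA7, UBE2L6 and HERC5, gave 0 of 14 by edgeR under non-targeting guides (4 at an unadjusted p below 0.05, 0 by DESeq2) and 1 of 14 under Tet guides, with medians of 0.024 and 0.06. That gene was UBA2, a SUMO activating subunit (0.24 ± 0.07, adjusted p = 0.0471), higher in sgTet, and its call ended without any 1 library other than sgTet replicate 2, with adjusted p-values from 0.0857 (sgNT replicate 2) to 0.358 (sgTet replicate 1).

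Genes with and without the ISRE letters in their window both differed between the activators. Under non-targeting guides the median log2 difference was -1.03 over 18 tested genes with the letters (17 called lower) and -1.17 over 11 tested genes without them (10 called lower). Under Tet guides the medians were -0.94 and -0.96, with 15 and 8 called lower. The values of the 18 ran from -1.94 (RSAD2) to -0.59 (EIF2AK2) under non-targeting guides. These medians are descriptions, with no test between the sets.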

How the data were processed

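Per the submitters' processing notes, reads were aligned with STAR to hg38, and the STAR version is not given in the sources used here. The authors deposited raw read counts per gene for each library, in 3 columns: reads counted without regard to strand, and reads on each strand. Counts without strand were used, since either strand held about the same number of reads. The 4 totals that name no gene (unmapped, multimapped, outside genes, ambiguous) made up 25.3% to 29.9% of a library and were left out. Symbols came from the supplied tables, and lengths, positions and overlaps from GENCODE 29.

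All 8 libraries were fitted together with edgeR 4.0.16 (R 4.3.3, TMM, filterByExpr by group, robust quasi-likelihood, 4 group means), giving 16606 genes, a common biological coefficient of variation of 8.04% and 4 residual degrees of freedom per gene. Tests were two-sided, with Benjamini-Hochberg adjustment over all of these genes. CPM are counts per 1000000 reads of TMM-scaled library size, and ± beside a log2 difference is the SE. The fit was run on simulated counts with known changes in crTet alone, the same spread in every library, and only the Tet guide comparison with dCas12a-VPR read. The real groups differ in spread, so the simulation cannot show how the fit behaves with them. DESeq2 1.42.0, other scalings, no filter, counts of 1 strand, the compared groups alone, a block for replicate number and leaving out each library were the alternatives. All 38 genes are named, those called in any of 5 comparisons with every library's value, and of other lists up to 3 called genes per comparison. IFNB1 and the marker genes were named outside that rule, after their values were seen. The members and lists were chosen with earlier results of these data known. The counts of the list of transcription factors are not reported here.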

Additional observations from a re-analysis of the deposited data

Results flagged for a closer look

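The difference between the Tet guide effects of the 2 activators, tested as an interaction in edgeR's quasi-likelihood fit, singled out 3 genes. RSAD2 had a log2 difference of 0.93, DDX60 of 0.62 and HERC5 of 0.47, each dCasMINI-VPR minus dCas12a-VPR. In all 3 the level fell from crNT to crTet and was not called between sgNT and sgTet. RSAD2 kept its call whichever library was left out, and DDX60 and HERC5 did not. Forward-strand counts also ended the calls of DDX60 and HERC5, and library size scaling that of HERC5.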

How the results depend on the processing

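Of 2848 values of the 35 genes under an alternative, 2672 kept their side of the threshold, 99 lost a call, 77 gained one, and 0 reversed a call. Values to which an alternative gave no adjusted p are not counted among the lost calls. DESeq2's missing calls of UBA7 (activators, non-targeting guides) and SAMD9L (Tet guide, dCas12a-VPR) are therefore not among the 99. The 2672 include 58 of the opposite sign that were called in neither fit. Fitting only the groups compared called 25 of the 35 genes for the Tet guide with dCas12a-VPR. For the Tet guide with dCasMINI-VPR, library size scaling called 5, no filter on low counts 6 and a replicate block within each activator 5. Forward-strand counts called 1 for the difference of guide effects. The causes were not tested. Without single libraries the counts ranged from 28 to 33 (activators, non-targeting guides), 22 to 29 (activators, Tet guides), 3 to 27 (Tet guide, dCas12a-VPR), 0 to 8 (Tet guide, dCasMINI-VPR) and 1 to 10 (difference). A group left with 1 library was assumed to vary like the others.

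Over all genes the Tet guide with dCas12a-VPR gave 1049 calls, 661 with forward-strand counts, 1785 with only the groups compared and 135 to 1965 without single libraries. With dCasMINI-VPR it gave 132, 276 without the filter, 84 with only the groups compared and 50 to 1475 without single libraries. The difference gave 224, 106 with forward-strand counts, 450 without the filter and 28 to 1835 without single libraries. The activators gave 1276 under non-targeting guides (2968 with only the groups compared, 333 to 2143 without single libraries) and 711 under Tet guides (444 with forward-strand counts, 317 with only the groups compared, 331 to 2150 without single libraries). Library size scaling moved the split of higher and lower calls from 592 and 457 to 432 and 602 (Tet guide, dCas12a-VPR), from 78 and 54 to 68 and 80 (Tet guide, dCasMINI-VPR) and from 279 and 432 to 186 and 464 (activators, Tet guides).

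Same-numbered libraries did not deviate together (Pearson r of -0.0326 to 0.0746 between groups, across 13969 genes), so the numbers were not taken to pair them. With a replicate block, 17 and 4 of the 35 genes were called for the Tet guide with dCas12a-VPR and dCasMINI-VPR, 32 and 27 between the activators, and 3 for the difference. Over all genes the block raised the calls for the difference to 400, or to 347 with a block within each activator. Depth limited PARP12, PARP14 and DDX60L, which were at or near the floor.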
